A study of Mus musculus with 6 samples.

Results

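This account covers 10 genes of the transforming growth factor beta (TGF-beta) pathway: the ligand gene Tgfb1, the receptor genes Tgfbr1, Tgfbr2 and Tgfbr3, the signal transducer genes Smad2 and Smad3, the inhibitor genes Smad7 and Skil, the integrin gene Itgb8 and the matrix gene Tgfbi. They were taken by name, as every probe set annotated to exactly 1 of these symbols, which gave 10 probe sets, 1 per gene, of 34760 on the array. The array named 19937 genes through probe sets with a single gene. RNA came from CD4+ T cells, which comprise helper and regulatory T lymphocytes, of C57BL/6 mice aged 6 weeks. The design set 3 samples of wild-type (WT) mice against 3 of mice deficient in cystathionine beta-synthase (CBS-KO), an enzyme of homocysteine breakdown and hydrogen sulfide production, on Affymetrix arrays. The labels call the arrays of a group biological replicates. Whether the Cbs deletion was confined to a cell type, and how the CD4+ cells were isolated, was not stated in the labels used here.

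TGF-beta is secreted in a latent form and must be freed before it can signal, a step that integrins containing the beta 8 chain carry out. The active ligand binds the type II receptor, which switches on the type I receptor kinase, and this kinase phosphorylates Smad2 and Smad3, which enter the nucleus together with Smad4. Smad7, which blocks the type I receptor, and SnoN, the corepressor encoded by Skil, are themselves switched on by the pathway and limit it. In CD4+ T cells the pathway restrains activation, and it is needed for the induction of regulatory T cells outside the thymus and for the Th17 programme.

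The arrays of both groups had similar medians, between 7.37 and 7.55 as log2(intensity + 16), the scale of every level below, but the CBS-KO arrays differed more among themselves. Among tested probe sets the median SD was 0.112 for WT and 0.214 for CBS-KO arrays. Xist was high on the WT arrays (at least 12.61) and on CBS-KO 3 (12.23) and low on CBS-KO 1 and 2 (6.02 and 6.18), so sex and genotype were partly confounded. The Cbs probe set did not separate the groups (difference 0.06, 95% confidence interval -0.27 to 0.39, limma adjusted p = 0.801), and the part of the gene it covers is not given here. The CD4 T cell markers were bright in both groups, with Cd4 at 13.34 in WT and 12.77 in CBS-KO cells. Of 10 such markers, 4 were lower in CBS-KO cells and 0 higher, while 12 of 13 monocyte and macrophage markers, 13 of 14 neutrophil markers and all 6 erythroid markers were higher. At the same limma adjusted p under 0.05, 4.47% of all tested probe sets were lower and 5.09% higher. For the CD4 T cell list, 0 genes were higher also at an unadjusted p under 0.05.

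Smad3 and Smad4 bind short DNA elements that contain CAGAC. The RefSeq promoter table for GRCm38.p6 held entries for 6 of the 10 genes, 2 of which passed the test described below, Tgfbi, which rose, and Itgb8, which fell. Both promoters are shown because these genes changed in opposite directions. Each sequence is the 250 bases before the annotated start, 5′ to 3′ in the direction of the gene, with CAGAC and its reverse complement GTCTG in capitals. The Tgfbi stretch lies at chr13:56609336-56609585 on the plus strand, and the Itgb8 stretch at chr12:119238277-119238526 on the minus strand.
Tgfbi: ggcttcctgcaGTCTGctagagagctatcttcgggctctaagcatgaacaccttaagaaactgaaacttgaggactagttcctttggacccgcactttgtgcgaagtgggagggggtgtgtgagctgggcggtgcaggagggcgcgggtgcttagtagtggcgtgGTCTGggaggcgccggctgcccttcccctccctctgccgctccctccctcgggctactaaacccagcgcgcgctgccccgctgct
Itgb8: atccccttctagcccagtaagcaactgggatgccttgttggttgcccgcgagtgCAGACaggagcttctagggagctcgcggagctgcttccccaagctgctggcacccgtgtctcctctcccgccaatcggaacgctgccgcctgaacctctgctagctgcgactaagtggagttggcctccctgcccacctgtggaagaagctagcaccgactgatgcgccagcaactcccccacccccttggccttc
Tgfbi held 2 matches, the nearer of them 85 to 81 bases before the start, and Itgb8 held 1 match, 196 to 192 bases before the start. A match is a description of these letters and not a binding site. Of all 32851 promoters of this length in the table, 42.2% held at least 1 match and 11.7% at least 2.

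In CBS-KO cells the co-receptor gene Tgfbr3, the feedback genes Smad7 and Skil and the integrin gene Itgb8 fell, to levels 1.58-fold to 1.82-fold lower, and the matrix gene Tgfbi rose 8.06-fold. The genes of the signalling receptors, Tgfbr1 and Tgfbr2, had log2 fold changes of -0.53 and -0.61 and the ligand gene Tgfb1 one of 0.33, none past the threshold. Of the 10 genes, 4 fell (Tgfbr3, Smad7, Skil and Itgb8) and 1 rose (Tgfbi) at a limma adjusted p under 0.05, where 4.47% of all 20856 tested probe sets were called lower and 5.09% higher. All 10 passed the filter on dim probe sets, and both group means of each lay above its level of 6.99. The groups did not overlap for any of the 10 genes, with 8 lower and 2 higher, against 21.7% lower and 15.0% higher of all tested probe sets. The median log2 fold change of the 10 genes was -0.57, beside -0.05 for all tested probe sets. The decreases were of the size of those of the CD4 T cell markers (median -0.59), and relative to those markers on the same array Tgfbr1, Tgfbr2, Smad2, Smad3 and Skil turned positive. That scale was chosen after the data were seen. It raises the difference of every probe set by the same amount and put the median of all tested probe sets at 0.63, so the sign change is not particular to these genes. In a bulk sample, fewer cells of a type and less RNA per cell cannot be told apart. An exact permutation test of 3 against 3 arrays cannot go below p = 0.1, two-sided, the value it gave for each of the 10 genes.

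**Figure D1:**
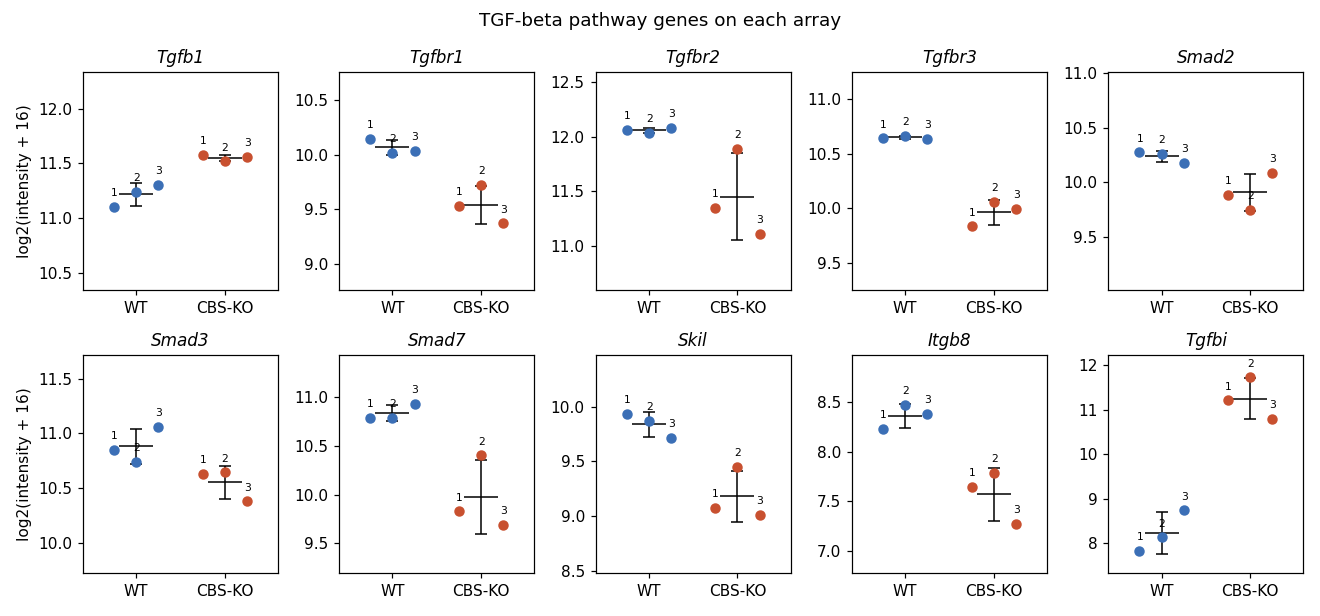
Level of each of the 10 genes on each array, as log2(intensity + 16) on the vertical axis, with points numbered by replicate, horizontal lines at the group means and bars of 1 SD (n = 3). Each panel has its own vertical axis. In all 10 panels the CBS-KO points lie to 1 side of the WT points, above them for Tgfb1 and Tgfbi and below them for the other genes, and among the 8 lower genes CBS-KO 2 lies closest to WT in every panel except that of Smad2.

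Tgfb1 encodes the ligand TGF-beta 1, which many blood cells make. Its levels were 11.10, 11.24 and 11.31 in WT 1 to 3 against 11.58, 11.52 and 11.56 in CBS-KO 1 to 3. The CBS-KO arrays were close to each other and all above the WT arrays. The log2 fold change was 0.33 (SE 0.09, 95% confidence interval 0.12 to 0.55, limma adjusted p = 0.0618), a 1.26-fold higher level that did not pass the threshold. It passed without CBS-KO 2 (adjusted p = 0.0323) and when only probe sets naming 1 gene were tested (range over the settings 0.000246 to 0.229). The low end of this range, and of each range of adjusted p below, came from array weights. That fit did not converge and put nearly all weight on CBS-KO 1.

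Itgb8 encodes the integrin beta 8 chain that pairs with alpha V to free TGF-beta from its latent form. It was measured at 8.23, 8.47 and 8.38 in WT 1 to 3 against 7.65, 7.79 and 7.27 in CBS-KO 1 to 3. Every CBS-KO array lay below every WT array, with CBS-KO 3 lowest. The log2 fold change was -0.79 (SE 0.16, limma adjusted p = 0.0355), or 1.73-fold lower. The call of Itgb8 did not hold without WT 1 (adjusted p = 0.12), WT 2 (0.146), WT 3 (0.0917) or CBS-KO 1 (0.116), nor when no filter was set (0.0572), within a range of 0.000152 to 0.146 over the settings.

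Among the receptors, Tgfbr3 encodes betaglycan, the co-receptor that presents ligand to the signalling receptors. Its levels were 10.64, 10.67 and 10.64 in WT 1 to 3 against 9.83, 10.06 and 9.996 in CBS-KO 1 to 3. The WT arrays were almost identical, with an SD of 0.02, and the CBS-KO arrays stood well apart from them with an SD of 0.12. Tgfbr3 fell by 0.69 on the log2 scale (SE 0.11, 95% confidence interval -0.94 to -0.43, limma adjusted p = 0.0184), which is 1.61-fold lower. The call was lost without WT 1 (adjusted p = 0.107), WT 2 (0.105), WT 3 (0.0568) or CBS-KO 1 (0.0896), within a range of 1.46e-05 to 0.107, and the difference stayed between -0.82 and -0.62 in all 18 settings fixed for the fit.

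Tgfbr1 encodes the type I receptor kinase ALK5, which passes the signal to the Smads. Its levels were 10.15, 10.02 and 10.04 in WT 1 to 3 against 9.53, 9.72 and 9.37 in CBS-KO 1 to 3. The groups were apart, and the log2 fold change of -0.53 (SE 0.13, 95% confidence interval -0.84 to -0.22) missed the threshold with a limma adjusted p of 0.0512. It passed in 7 of the 18 settings, among them array weights, a fit that did not converge, and CBS-KO 3 alone, whose spread comes from the WT arrays only. Leaving out CBS-KO 2 gave -0.62 with an adjusted p of 0.0103, and the range over the settings was 9.27e-05 to 0.197.

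Tgfbr2 encodes the ligand-binding type II receptor kinase. It stood at 12.06, 12.03 and 12.08 in WT 1 to 3 against 11.35, 11.89 and 11.11 in CBS-KO 1 to 3. The WT arrays varied with an SD of 0.02 and the CBS-KO arrays with an SD of 0.40: CBS-KO 2 lay just below WT and CBS-KO 3 far below. The log2 fold change of -0.61 (SE 0.19, 95% confidence interval -1.07 to -0.15) did not pass (limma adjusted p = 0.0873). Without CBS-KO 2 it was -0.83 and passed (adjusted p = 0.00368), within a range of 4.62e-05 to 0.24 over the settings. Leaving out that array raised the calls over all tested probe sets from 1995 to 6427, so the change was not particular to Tgfbr2.

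**Figure D2:**
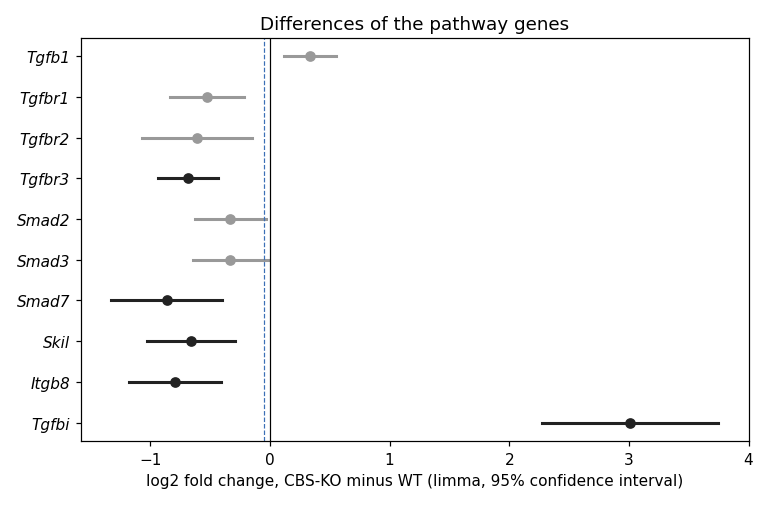
Log2 fold change of each gene, CBS-KO minus WT, on the horizontal axis, with points at the estimate and lines over limma's 95% confidence interval (3 arrays per group). Black marks genes with a limma adjusted p under 0.05 and grey the others, and the dashed line is the median of all tested probe sets (-0.05). Tgfbi stands apart at 3.01, and the 8 negative estimates lie between -0.86 and -0.33. Those of Tgfbr1, Tgfbr2, Smad2, Smad3 and Skil turned positive relative to the CD4 T cell markers of each array, a scale that raises every difference by the same amount.

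The receptor-activated Smads, which carry the signal to the nucleus, had the smallest estimates among the lower genes. Smad2 had levels of 10.27, 10.26 and 10.18 in WT 1 to 3 against 9.88, 9.75 and 10.09 in CBS-KO 1 to 3. Unlike the receptors, Smad2 was lowest on CBS-KO 2 and closest to WT on CBS-KO 3. Its log2 fold change was -0.33 (SE 0.12, 95% confidence interval -0.63 to -0.03, limma adjusted p = 0.129). Smad3 had levels of 10.85, 10.74 and 11.06 in WT 1 to 3 against 10.63, 10.64 and 10.38 in CBS-KO 1 to 3, for a difference of -0.33 (SE 0.13, limma adjusted p = 0.143). Neither gene passed the threshold. Their intervals reached -0.63 and -0.64, so a decrease of the size estimated for Tgfbr1 or Tgfbr2 lies within them.

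The feedback inhibitors fell. Smad7, the inhibitory Smad that competes for the type I receptor and marks it for degradation, had levels of 10.79, 10.79 and 10.93 in WT 1 to 3 against 9.83, 10.40 and 9.69 in CBS-KO 1 to 3. All CBS-KO arrays were below WT, with CBS-KO 2 less so than the others. The log2 fold change was -0.86 (SE 0.19, 95% confidence interval -1.33 to -0.40, limma adjusted p = 0.0426), or 1.82-fold lower, the most negative estimate of the 10 genes. The call of Smad7 did not hold without CBS-KO 1 (adjusted p = 0.149), CBS-KO 3 (0.0701), WT 1 (0.155), WT 2 (0.152) or WT 3 (0.114), nor when no filter was set (0.0723), against 2.15e-05 to 0.155 over the settings. Apart from array weights, the lowest adjusted p was 0.00246, without CBS-KO 2.

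Skil, the gene of SnoN, a corepressor that sits on Smad-bound promoters until the signal destroys it, had levels of 9.93, 9.87 and 9.71 in WT 1 to 3 against 9.08, 9.45 and 9.01 in CBS-KO 1 to 3. Over the CBS-KO arrays its order was that of Smad7, with CBS-KO 2 nearest to WT. Skil fell by 0.66 on the log2 scale (SE 0.16, limma adjusted p = 0.0468), or 1.58-fold. Its call was lost without CBS-KO 1 (adjusted p = 0.163), CBS-KO 3 (0.0827), WT 1 (0.181), WT 2 (0.17) or WT 3 (0.0899), with no filter (0.0724) and after quantile normalization (0.0518), against 3.85e-05 to 0.181 over the settings. Over the whole set, 0 genes were called lower by limma when WT 1, WT 2, WT 3 or CBS-KO 1 was left out. At an unadjusted p under 0.05 these fits had 6, 7, 6 and 5 lower genes. The number of all tested probe sets under that cut in these fits is not given here. These counts therefore cannot be set against a general rate. With every array kept, 6443 of all 20856 tested probe sets were under it in either direction. Of the 10 genes, 6 were called lower when CBS-KO 2 was left out and 2 when CBS-KO 3 was. The share of all tested probe sets called lower moved with them, from 0.120%, 0.0911% and 1.18% when WT 1, WT 2 or WT 3 was left out to 0.225%, 14.5% and 2.69% when CBS-KO 1, CBS-KO 2 or CBS-KO 3 was.

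Tgfbi, a TGF-beta-induced extracellular matrix protein that monocytes and macrophages also make, moved the other way from every receptor and inhibitor of the set. Its levels were 7.83, 8.14 and 8.74 in WT 1 to 3 against 11.21, 11.73 and 10.80 in CBS-KO 1 to 3. On the linear scale the intensity went from 211, 265 and 412 to 2350, 3373 and 1768. WT 3 was the highest WT array and CBS-KO 2 the highest CBS-KO array. Tgfbi rose by 3.01 on the log2 scale (SE 0.31, 95% confidence interval 2.27 to 3.75, limma adjusted p = 0.00807), or 8.06-fold. The call did not hold without WT 2 (adjusted p = 0.0583, range 9.17e-06 to 0.0583), and the log2 fold change lay between 2.57 and 3.26 in the 18 settings.

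Monocyte and macrophage markers moved with Tgfbi across the arrays. Relative to the WT mean, Tgfbi stood at -0.41, -0.10 and 0.51 in WT 1 to 3 against 2.97, 3.49 and 2.57 in CBS-KO 1 to 3. The mean of the 14 monocyte and macrophage markers on the array stood at -0.23, -0.15 and 0.37 in WT 1 to 3 against 1.64, 2.10 and 1.69 in CBS-KO 1 to 3. WT 3 was the highest WT array and CBS-KO 2 the highest CBS-KO array in both. This was not particular to that list. The B cell, NK cell, dendritic cell and CD8 T cell lists were also highest on WT 3 and CBS-KO 2 within their groups. Like Tgfbi they were lowest on CBS-KO 3 among the CBS-KO arrays, where the monocyte and macrophage list was lowest on CBS-KO 1. The dendritic cell list stood at 1.01, 1.34 and 0.48 and the NK cell list at 1.04, 1.06 and 0.51 in CBS-KO 1 to 3. Unlike Tgfbi, the B cell list (-0.18, 1.18 and -0.67) and the CD8 T cell list (-0.37, 0.97 and -0.44) lay below the WT mean on CBS-KO 1 and 3. The CD8 T cell list holds 2 genes and was nearly equal on WT 2 and WT 3 (0.0188 and 0.0192). The summed intensity of the monocyte and macrophage markers was 4725 to 6819 on the WT arrays and 19200 to 25110 on the CBS-KO arrays, and none was at 0. Among them Lyz2, the lysozyme of myeloid cells, rose by 3.67 (SE 0.39) and Csf1r, the receptor for the macrophage growth factor CSF1, by 2.396 (SE 0.36), while Ccr2, the chemokine receptor of inflammatory monocytes, had 0.97 (SE 0.33, limma adjusted p = 0.104). The neutrophil list stood at 3.61, 3.47 and 3.19 and the erythroid list at 3.59, 2.71 and 3.89 in CBS-KO 1 to 3. The part of these cells in the Tgfbi and Tgfb1 values was not tested.

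**Figure D3:**
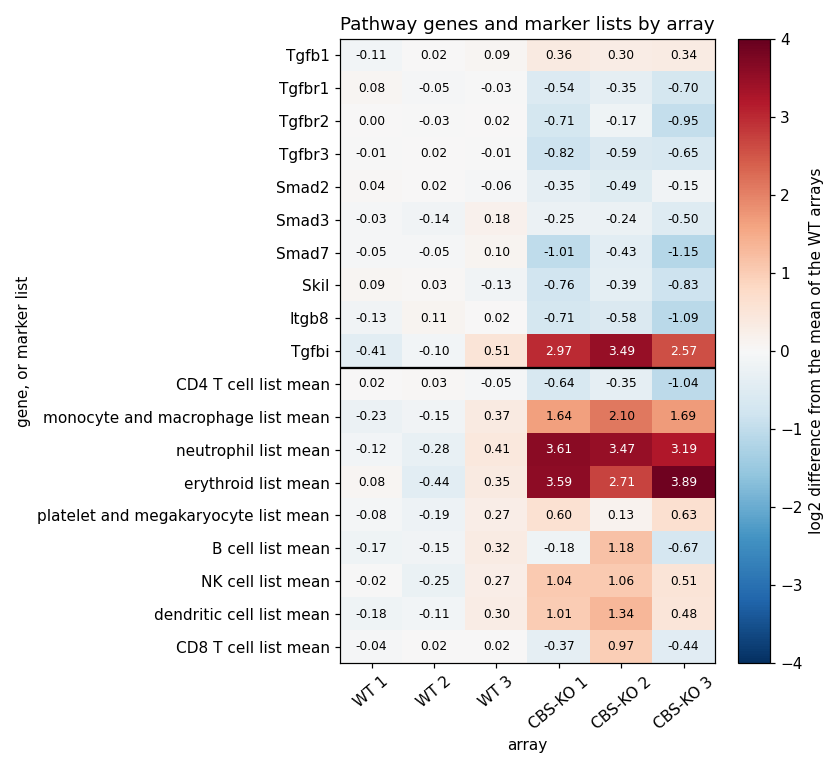
Log2 difference from the mean of the WT arrays for each of the 10 genes (above the line) and for the mean of each marker list (below it), with 1 column per array and the value printed in each cell. The CD4 T cell list mean and 6 of the genes below WT (Tgfbr1, Tgfbr2, Smad3, Smad7, Skil and Itgb8) share an order, nearest to WT on CBS-KO 2 and farthest on CBS-KO 3. Tgfbi is highest on CBS-KO 2, as are the monocyte and macrophage, B cell, NK cell, dendritic cell and CD8 T cell lists. The B cell and CD8 T cell lists lie below the WT mean on CBS-KO 1 and 3.

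CD4 T cell markers moved with the receptors and inhibitors. The mean of the 10 markers on the array, among them Cd3d, Cd4 and Cd28, stood at -0.64, -0.35 and -1.04 in CBS-KO 1 to 3 on the same scale. In the same arrays Tgfbr2 stood at -0.71, -0.17 and -0.95, Smad7 at -1.01, -0.43 and -1.15, Skil at -0.76, -0.39 and -0.83 and Tgfbr1 at -0.54, -0.35 and -0.70. These 4 genes, Smad3, Itgb8 and the marker list had the same order over the CBS-KO arrays, and Smad2 had the opposite one, at -0.35, -0.49 and -0.15. Tgfbr3 followed neither order, at -0.82, -0.59 and -0.65. The medians of the arrays had the order of the marker list too, at 7.47, 7.55 and 7.37 in CBS-KO 1 to 3.

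Set relative to the CD4 T cell markers of the same array, the decreases were small or gone. On that scale, which was chosen after the data were seen, the CBS-KO minus WT difference was -0.19 for Smad7, -0.12 for Itgb8, -0.01 for Tgfbr3, 0.02 for Skil, 0.07 for Tgfbr2, 0.15 for Tgfbr1, 0.35 for Smad2 and 0.35 for Smad3. Tgfb1 was at 1.01 (limma adjusted p = 0.0215) and Tgfbi at 3.69 (0.000327). By limma, 0 of the 10 genes were called lower on it, also at an unadjusted p under 0.05, and 2 were called higher. This scale moved the median of all tested probe sets to 0.63, so that 0.403% of them were called lower and 46.7% higher, and the 9828 calls were split into 9744 higher and 84 lower against 1062 and 933 on the deposited scale. Of the 10 genes, Tgfb1 and Tgfbi lay above this median and the other 8 below it.

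**Figure D4:**
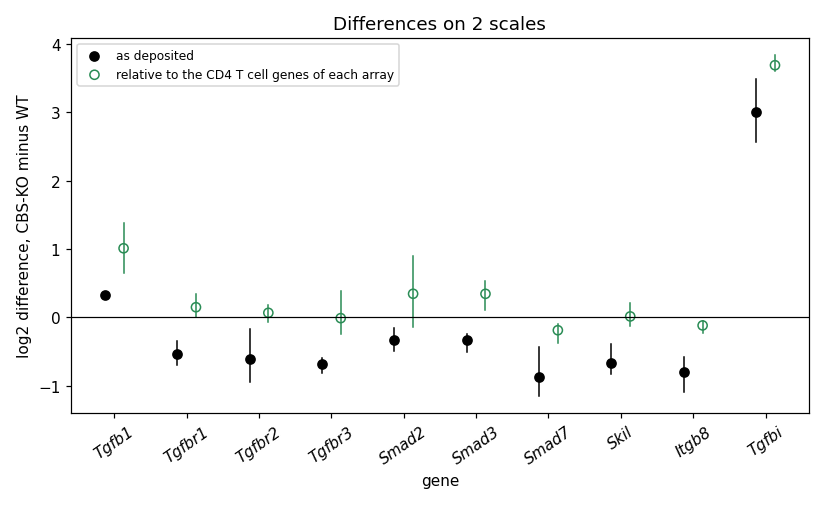
CBS-KO minus WT log2 difference of each gene on the deposited scale (filled points) and relative to the mean of the CD4 T cell markers of the same array (open points), with lines from the lowest to the highest CBS-KO array. The open points of Tgfbr1, Tgfbr2, Tgfbr3, Smad7, Skil and Itgb8 lie between -0.19 and 0.15, those of Smad2 and Smad3 at 0.35, and those of Tgfb1 and Tgfbi at 1.01 and 3.69.

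Genes around the ligand, its storage and its release did not move 1 way. Of 10 tested genes of this kind, 1 fell and 1 rose (median log2 fold change 0.18), where 4.47% of all tested probe sets were called lower and 5.09% higher. Lrrc32, which encodes GARP, the protein that holds latent TGF-beta on the surface of regulatory T cells, had levels of 9.69, 9.37 and 9.84 in WT 1 to 3 against 8.15, 8.65 and 7.81 in CBS-KO 1 to 3. It was 2.70-fold lower (log2 fold change -1.43, SE 0.24, limma adjusted p = 0.0228). Relative to the CD4 T cell markers it was at -0.76 (adjusted p = 0.0329). Thbs1, the gene of thrombospondin 1, a platelet and macrophage product that can free latent TGF-beta, rose by 0.93 (SE 0.17, limma adjusted p = 0.0291). For Itgav, the alpha V partner of Itgb8, the log2 fold change was -0.42 (SE 0.20, adjusted p = 0.218). It passed without CBS-KO 2 (0.0256, range over the settings 0.00124 to 0.426), and it turned to 0.26 relative to the CD4 T cell markers. When WT 1, WT 2, WT 3 or CBS-KO 1 was left out neither call held, with adjusted p of 0.108, 0.0824, 0.0699 and 0.096 for Lrrc32 and of 0.111, 0.111, 0.0589 and 0.111 for Thbs1. The call of Thbs1 did not hold either when CBS-KO 3 was left out (0.0525). The ranges over the settings were 2.61e-05 to 0.108 for Lrrc32 and 0.000171 to 0.111 for Thbs1.

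Of the other receptors of the family, 7 were tested, 1 rose and 1 fell (median log2 fold change -0.02), beside 5.09% higher and 4.47% lower of all tested probe sets. Eng, which encodes endoglin, a co-receptor of endothelial cells that red cell precursors and macrophages also carry, had levels of 8.58, 8.15 and 9.06 in WT 1 to 3 against 11.09, 9.83 and 11.14 in CBS-KO 1 to 3. It rose by 2.09 on the log2 scale (SE 0.40, limma adjusted p = 0.0304) and, like the erythroid list, was lowest on CBS-KO 2 among the CBS-KO arrays. Acvrl1, which encodes the type I receptor ALK1, had levels of 8.59, 8.88 and 8.84 in WT 1 to 3 against 7.69, 7.81 and 7.69 in CBS-KO 1 to 3, and fell by 1.04 (SE 0.13, limma adjusted p = 0.0119). Relative to the CD4 T cell markers it was at -0.37 and did not pass (adjusted p = 0.179). The call of Acvrl1 did not hold without WT 1 (0.0528), WT 2 (0.0722) or CBS-KO 1 (0.0654), within 3.15e-05 to 0.0722. That of Eng did not hold without CBS-KO 1 (0.116), CBS-KO 3 (0.0544), WT 1 (0.126), WT 2 (0.127) or WT 3 (0.058), nor when no filter was set (0.0547), within 2.01e-05 to 0.127.

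None of the 20 tested genes of the other Smads and Smad regulators was called by limma. Of these, 16 had negative log2 fold changes (median -0.26), beside 57.2% of all tested probe sets. By limma 7, all negative, had an unadjusted p under 0.05, as had 6443 of all 20856 tested probe sets in either direction. Smad4, the partner of Smad2 and Smad3, had levels of 11.94, 12.01 and 11.75 in WT 1 to 3 against 11.50, 11.86 and 11.21 in CBS-KO 1 to 3, a log2 fold change of -0.38 (SE 0.17, limma adjusted p = 0.192). Ski, the corepressor related to SnoN, had -0.30 (SE 0.16, adjusted p = 0.246). Both passed without CBS-KO 2 (adjusted p = 0.0242 for Smad4, range over the settings 0.000493 to 0.423, and 0.0179 for Ski, range 0.000728 to 0.495). Relative to the CD4 T cell markers they turned positive, to 0.30 and 0.38.

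Genes that TGF-beta is known to regulate in T cells and other cells were mixed as well, with 1 of 15 tested higher and 2 lower (median -0.08). The shares of all tested probe sets were 5.09% higher and 4.47% lower. Id3, an inhibitor of E proteins in lymphocytes, fell by 1.30 (SE 0.19, limma adjusted p = 0.0174). Tgfb1i1, the gene of the adaptor Hic-5, fell by 0.76 (SE 0.14, adjusted p = 0.0259). Relative to the CD4 T cell markers these were -0.62 (adjusted p = 0.0553) and -0.08 (0.731). Mt2, a metal-binding metallothionein, rose by 2.34 (SE 0.29, adjusted p = 0.0116). Itgae, the gene of the integrin CD103 that TGF-beta induces on T cells, had levels of 8.04, 7.96 and 8.42 in WT 1 to 3 against 8.72, 8.72 and 8.16 in CBS-KO 1 to 3, with overlapping groups and a difference of 0.40 (SE 0.21, adjusted p = 0.248). Relative to the CD4 T cell markers Itgae was at 1.07 (0.0175). On that scale the median of all tested probe sets was 0.63 and 46.7% of them were called higher. Foxp3, the regulatory T cell factor, had 10.86, 10.70 and 10.82 in WT 1 to 3 against 10.71, 11.001 and 9.87 in CBS-KO 1 to 3, with overlapping groups and a difference of -0.27 (SE 0.28, adjusted p = 0.565), which turned to 0.06 without CBS-KO 3. The calls did not hold for Id3 without WT 1 (0.0965), WT 2 (0.0845) or CBS-KO 1 (0.0654), for Tgfb1i1 without WT 1 (0.111), WT 2 (0.117), CBS-KO 1 (0.111) or CBS-KO 3 (0.0509), and for Mt2 without CBS-KO 1 (0.0602). The ranges over the settings were 5.73e-05 to 0.0965 for Id3, 4.25e-05 to 0.117 for Tgfb1i1 and 4.2e-05 to 0.0602 for Mt2.

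Over the 6 arrays, which share the 2 genotypes, many of the 13862 tested probe sets that name 1 gene followed the same pattern as the called genes. The 3 most like Tgfbi by Pearson's r were Ccl6 (0.997), a chemokine gene of myeloid cells, Rcn3 (0.997) and Trem3 (0.997), and 283 in all had an r above 0.95. Those most like Tgfbr3 were A530021J07Rik (0.997), Slfn8 (0.994) and Rsf1 (0.993). Smad7 was most like Bbs9 (0.998), Tigd2 (0.998) and Mpnd (0.998), and Skil most like Rras2 (0.9998), Arap2 (0.999) and Tbc1d30 (0.999). Itgb8 was most like Rab8a (0.997), Nlrc5 (0.995) and Trim21 (0.995). With 6 points that fall into 2 groups, such values describe the arrays only.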

How the data were processed

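The authors deposited a linear intensity for each probe set on each array, a scale inferred from the size of the values, with array medians of 149 to 171. Per the labels' protocols, RNA came from a Qiagen kit and was labelled as biotinylated cRNA after the Affymetrix protocol. How the authors corrected background, normalized and summarised is not given in the sources used, so the centring of the arrays stays unknown. Values were taken as log2(intensity + 16), probe sets with a mean above the 40th percentile were tested (20856 of 34760), and CBS-KO was compared with WT on all 6 arrays (R 4.3.3 with limma 3.58.1, eBayes with trend, two-sided, Benjamini-Hochberg over all tested probe sets, threshold 0.05). Gene names came from the platform annotation, and a listed gene is represented by the brightest of its tested probe sets annotated to it alone. The rule named every one of the 10 genes, up to 4 called genes of each pathway list with 6 genes named whether called or not, and the 3 probe sets most like each called gene. The 10 genes, the lists and the tests were chosen with earlier results of these data known. The fit was tested on simulated data with the same spread in both groups, unlike these arrays, so that test does not cover the unequal spread. The settings varied were the normalization (quantile, or a common median), the filter, the offset (1 or 64), the variance model, array weights, the replicate number as a block, each array left out, CBS-KO 3 alone and probe sets of a single gene. Same-numbered arrays were checked for pairing by the correlation of their deviations from the group means, which was 0.06, 0.16 and 0.11 over tested probe sets. Values for differently numbered arrays are not given here, so this check cannot decide whether the numbers pair the arrays. The numbers were not taken to pair them because the labels do not say so. That replicates came from separate mice rests on the labels' word biological. The number of arrays limits the precision. Figures were drawn with matplotlib 3.10.9.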

Additional observations from a re-analysis of the deposited data

How the results depend on the processing

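With no filter 1126 probe sets were called, against 1995 as reported, and 1 of the 10 genes was lower against 4. Array weights gave 13534 calls with 8 of the genes lower and 2 higher, in a fit that did not converge and that put nearly all weight on CBS-KO 1. CBS-KO 3 alone against WT gave 6708 calls, in a fit whose spread comes from the WT arrays only and assumes that the lone array varies like them. Testing only probe sets that name 1 gene put 5 of the 10 genes lower and 2 higher, where 1012 and 1243 of all 13862 tested were called lower and higher. With the replicate number as a block, 2 of the 10 genes were lower (2093 calls in all), without Smad7 (adjusted p = 0.057) and Skil (0.0549); the labels do not say that the numbers pair mice. Relative to the CD4 T cell markers 9828 probe sets were called, 0 of the 10 genes lower and 2 higher, and the log2 fold changes turned to 0.15 for Tgfbr1, 0.068 for Tgfbr2, 0.35 for Smad2, 0.35 for Smad3, 0.015 for Skil, 0.30 for Smad4, 0.38 for Ski, 0.26 for Itgav and 0.41 for Foxp3. With single arrays left out Foxp3 ranged from -0.50 without CBS-KO 2 to 0.063 without CBS-KO 3, and with CBS-KO 3 alone it was at -0.92 (adjusted p = 0.01). Leaving out single arrays gave 73 to 6427 calls, 0 to 6 of the 10 genes lower and 0 to 2 higher. Beyond the fewer genes tested, arrays used or the shift built into a setting, the cause was not tested. Under the other normalizations, filters, offsets and variance models, 3 to 5 of the 10 genes were lower and 1 higher. Over all tested probe sets, 809 to 1099 were called lower and 918 to 1204 higher in these settings, of 20856 tested, or 13904 at the 60th percentile. At the 60th percentile Itgb8 and Tgfb1i1 were not tested. Probe sets near the filter level are limited by a background that is not known.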
